A study of Mus musculus with 12 samples.

Results

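The genes described here carry glucose into the muscle fibre, split it to pyruvate and lactate, and store it as or release it from glycogen. They are 45 genes of the 55450 in the count table, chosen by name for their place in these pathways and matched from gene symbol to Ensembl identifier. All 45 had enough reads to be tested. By role they are 5 glucose and lactate carriers, 6 genes of upper glycolysis (hexokinase to phosphofructokinase), 4 enzymes that make and break fructose-2,6-bisphosphate, 11 of lower glycolysis (aldolase to pyruvate kinase), 5 of lactate, glycerol phosphate and fructose bisphosphate metabolism, 6 of glycogen synthesis and 8 of glycogen breakdown.

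Tibialis anterior (TA) muscle, a mostly fast-twitch muscle of the shin, was sampled in wild-type (WT) mice at E18.5, shortly before birth, at 2 weeks (wks) of age and at 7 wks, with 4 mice at each age and 1 library from each mouse. The genetic background is given as 129Pas, no treatment is named, and the sex of the mice is not given in the labels. RNA came from pieces of whole muscle, so every level below is an average over fibres, connective tissue, vessels and nerve, and fewer cells of a type cannot be told apart from less RNA in each cell. Ages were compared in pairs, and the 2 wks libraries stand in both intervals described, E18.5 to 2 wks and 2 to 7 wks.

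Glycolysis turns glucose into pyruvate with a small and fast yield of ATP, and fast-twitch fibres rely on it during short, intense work. Many of its steps are carried out by closely related enzymes from separate genes, of which one is the main form of adult skeletal muscle (*Pfkm*, *Pgam2*, *Eno3*, *Pygm*) and the others are found in most tissues or mainly in liver or brain. Glycogen is the fibre's own glucose store. It is built by glycogen synthase and branching enzyme and broken down by glycogen phosphorylase, which phosphorylase kinase switches on.

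Library totals ran from 63018968 to 123449246 counted reads. All 7 markers of muscle fibres fixed for this check were found at every age, and their summed level was 6341 to 14166 CPM (counts divided by library size, after TMM scaling between libraries) in the E18.5 mice. It was 88115 to 118943 CPM at 2 wks, and at 7 wks it was 91722 to 143211. *Myh8*, the perinatal myosin, fell from a mean of 5840 CPM at E18.5 to 30.7 CPM at 2 wks, while *Myh4*, the myosin of the fastest fibres, went from 33.5 to 38603 CPM. The summed level of 7 fibroblast markers was 6100 to 12453 CPM in the E18.5 mice, 4514 to 6229 in the 2 wks mice and 1008 to 4158 in the 7 wks mice. Fibre content, fibre type and age therefore moved together, and the part of fibre or fibroblast content in the changes below was not tested. By the summed level of 6 adipocyte markers the E18.5 libraries fell into 2 pairs. It was 232 and 179 CPM in replicates 1 and 2 but 1972 and 2700.1 CPM in replicates 3 and 4. The sum was 419 to 484 CPM in the 2 wks mice and 309 to 411 in the 7 wks mice. Nearly all of that was *Fabp4*, with means of 442 and 365 CPM. *Adipoq*, *Plin1* and *Retn* were higher in every E18.5 mouse than at either later age, while *Cidec* and *Lep* overlapped. The sum therefore does not rank adipocyte content across ages. Replicates 1 and 2 were otherwise unlike, with 6341 and 14166 CPM of muscle fibre markers. Calls to 2 wks that depend on replicates 3 and 4 are given with and without them.

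The 45 genes took 1.19 to 2.09% of all counted reads in the E18.5 mice, 5.41 to 7.07% in the 2 wks mice and 5.94 to 7.35% in the 7 wks mice. The E18.5 libraries lay below all 8 postnatal libraries, and the ranges at 2 and 7 wks overlapped. Lower glycolysis made up most of this, with 0.614 to 1.34% of reads before birth and, in turn, 3.73 to 5.02% and 3.67 to 4.96% in the 2 wks and 7 wks mice. The glycogen synthesis genes gained in both intervals, from a mean of 0.16% before birth to 0.251% at 2 wks and 0.349% at 7 wks, with no overlap between any of the ages.

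**Figure D1:**
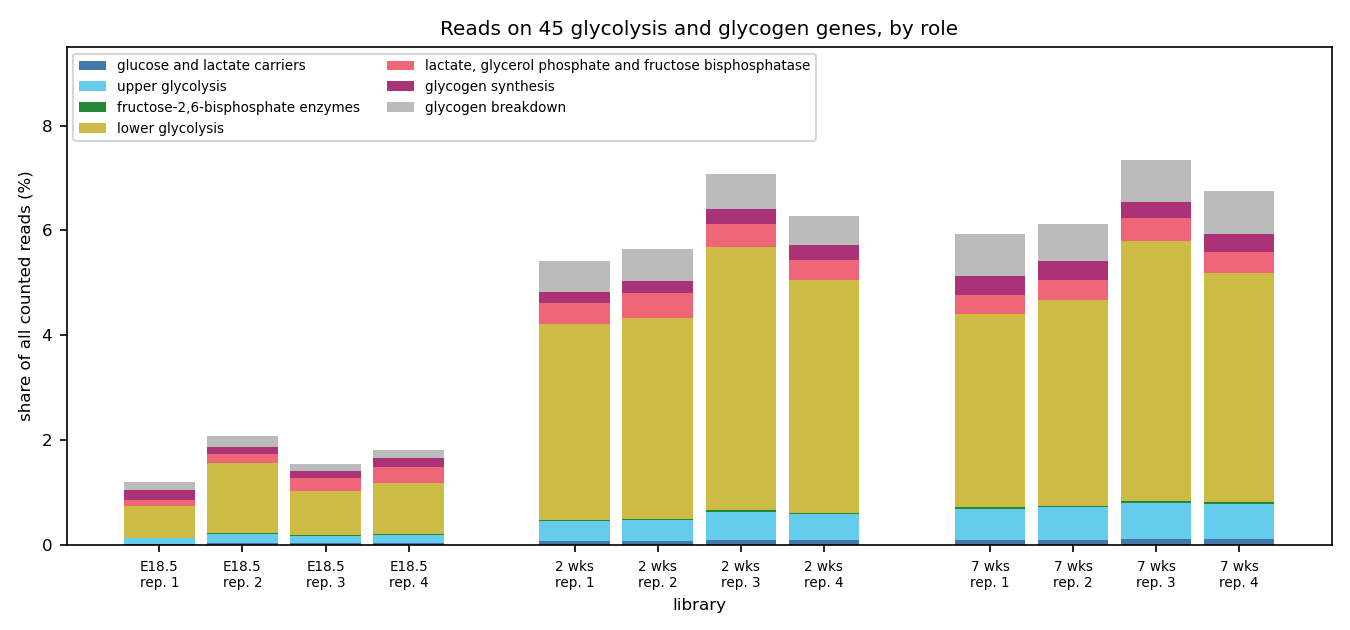
Share of all counted reads (%) that fell on the 45 genes in each of the 12 libraries, stacked by role. The 4 E18.5 bars reach 1.19 to 2.09% and the 8 postnatal bars 5.41 to 7.35%, most of it lower glycolysis.

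Between E18.5 and 2 wks, 30 of the 45 genes rose, 10 fell and 5 did not pass the edgeR quasi-likelihood test with Benjamini-Hochberg adjustment over all genes tested, at a threshold of 0.05. Of all 19276 genes tested, 65.7% passed in this interval, 31.5% higher and 34.2% lower at 2 wks, so a change as such was common. The 45 genes' median log2 fold change was 1.55, against -0.09 over all genes tested. The libraries of the 2 ages did not overlap for 32 genes, 24 higher and 8 lower at 2 wks, where 61.3% of all genes did not overlap. With libraries scaled to their total count in place of TMM the split was 22 higher and 14 lower. That scaling moves the median of all genes to -1.02 and turns *Ldhb*, *Ugp2* and *Phkg2*, which rose with TMM, negative. *Phkg2* then passed as lower, as did *Slc16a1* (-0.97), *Hk1* (-0.73) and *Eno1* (-0.82), 3 genes that did not pass with TMM.

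Between 2 and 7 wks, 14 genes rose, 7 fell and 24 did not pass, against 27.5% of all genes that passed (13.5% higher, 13.9% lower). The median log2 fold change was 0.34, and -0.03 over all genes. Libraries did not overlap for 16 genes that were higher and 6 that were lower at 7 wks, where 33.7% of all genes did not overlap. Scaled to total count the split turned to 7 higher and 10 lower, with the median of all genes at -0.38. The 7 rises lost were those of *Slc2a4*, *Pfkfb1*, *Pfkfb3*, *Gys1*, *Gbe1*, *Pgm1* and *Pygm*, and the 3 falls gained were those of *Pfkfb4* (-0.57), *Phka2* (-0.64) and *Phkg2* (-0.72). The count fell to 13 when replicate 1 or replicate 2 of the 2 wks mice was left out. Over the whole span, 31 genes were higher at 7 wks than at E18.5, 11 were lower and 3 did not pass, with a median of 2.42 against -0.09 over all genes, of which 71.4% passed (34.3% higher, 37.1% lower).

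**Figure D2:**
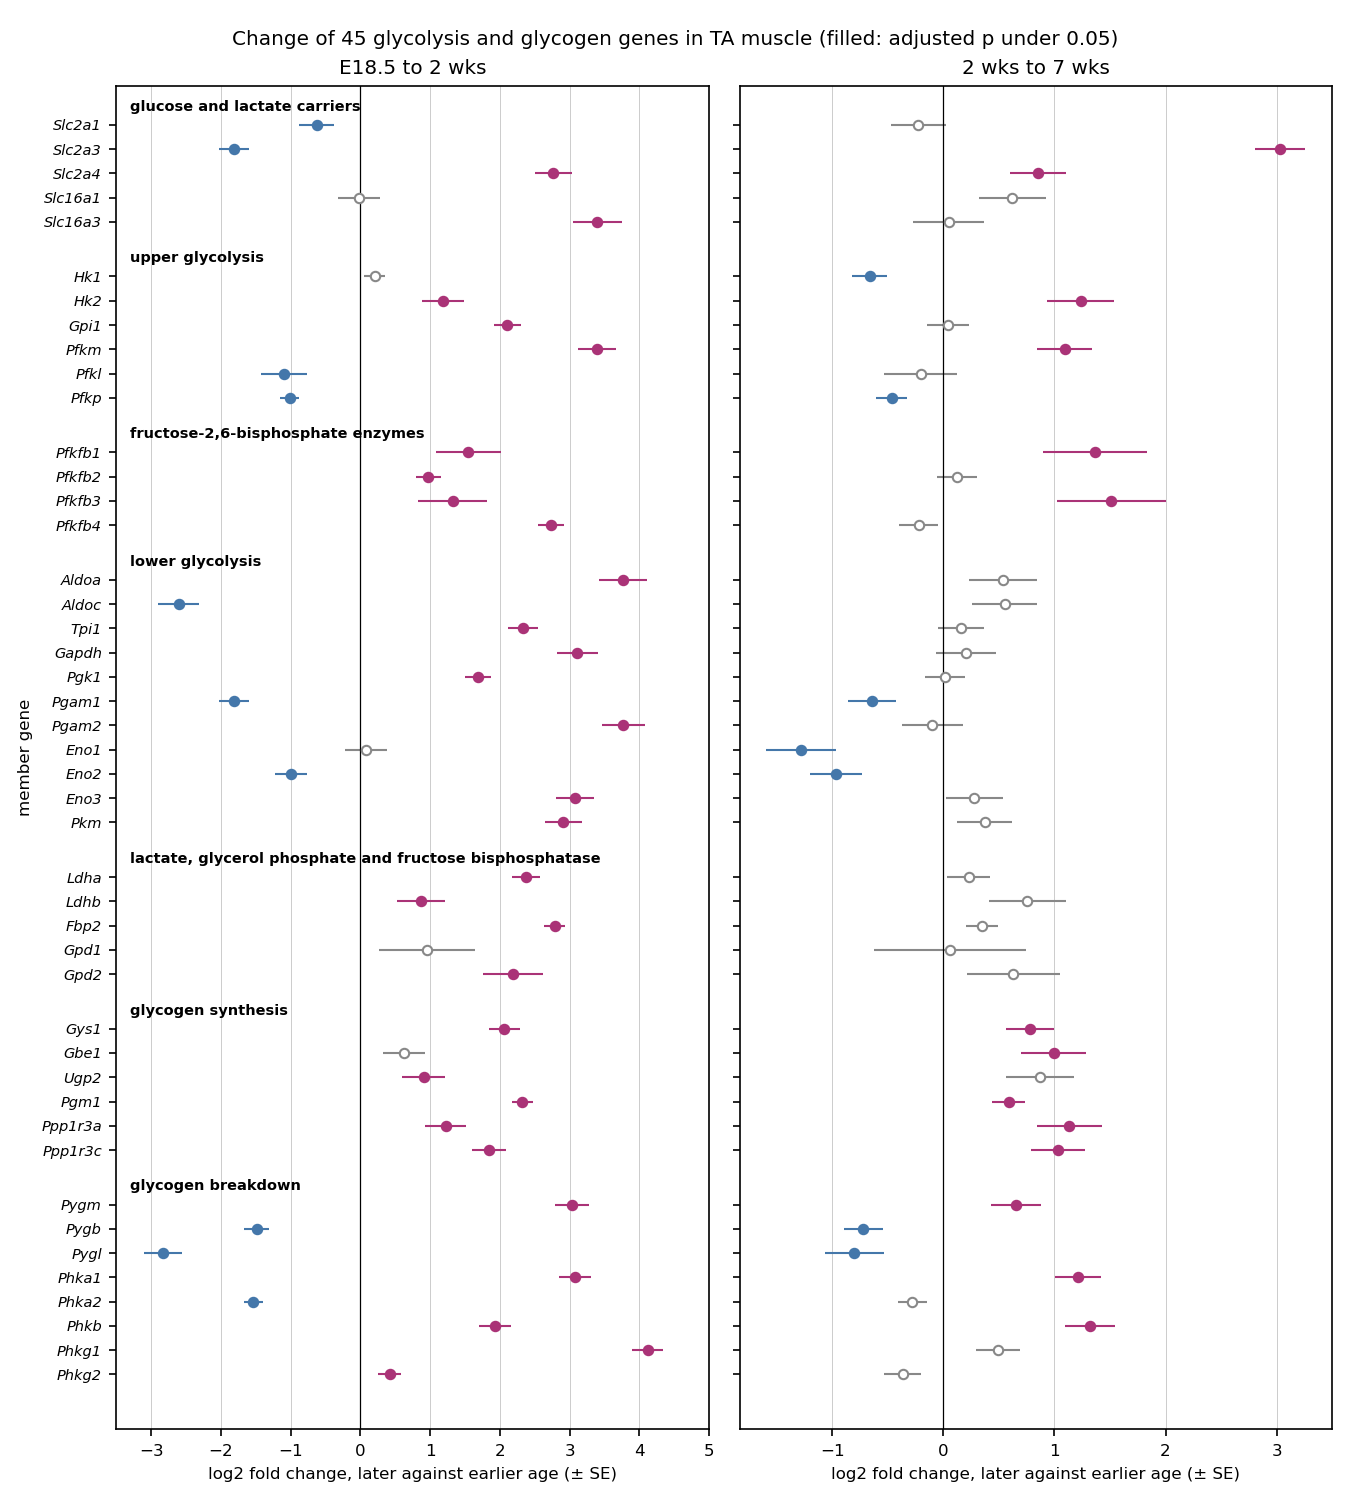
log2 fold change (± SE, from edgeR) of each of the 45 genes between E18.5 and 2 wks (left) and between 2 and 7 wks (right), grouped by role. Filled points passed an adjusted p of 0.05, and the x axes differ in range. Lower glycolysis holds 7 rises on the left and 0 on the right, while glycogen synthesis holds 5 rises in each with TMM scaling. Of all genes tested, 31.5% rose in the left interval and 13.5% in the right.

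The largest rises to 2 wks were those of *Phkg1* (4.12 on the log2 scale), *Aldoa* (3.77) and *Pgam2* (3.77), and the deepest falls those of *Pygl* (-2.84), *Aldoc* (-2.61) and *Slc2a3* (-1.81). Among aldolases, mutases, phosphorylases and glucose carriers the form of adult muscle rose while a form found mainly elsewhere fell. Between 2 and 7 wks the largest rises were those of *Slc2a3* (3.03), *Pfkfb3* (1.51) and *Pfkfb1* (1.37), and the deepest falls those of *Eno1* (-1.28), *Eno2* (-0.96) and *Pygl* (-0.80).

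To compare forms within a step, counts were divided by the length of each gene's canonical transcript, and the log2 ratio of 16 pairs was taken inside each library, where the scaling between libraries cancels. Written with the muscle or adult form first, 13 of 16 ratios were higher at 2 wks than at E18.5 and 0 were lower, by two-sided exact permutation tests over the 70 regroupings of 4 against 4 mice. In each of those 13 all 16 pairings of a younger with an older mouse pointed the same way, which gives the smallest p this design allows, 0.0286, or 0.0361 adjusted over the 48 pair tests. Between 2 and 7 wks, 9 ratios moved toward the first gene and 2 toward the second. The 2 were *Slc2a4* over *Slc2a3*, which had risen to 2 wks, and *Gpd1* over *Gpd2*. The latter had not differed between E18.5 and 2 wks (exact permutation p = 0.486). From E18.5 to 7 wks 14 of 16 ratios were higher. The others, *Gpd1* over *Gpd2* (exact permutation p = 0.2) and *Pfkfb1* over *Pfkfb3* (exact permutation p = 0.457), did not differ over that span. *Pfkfb1* over *Pfkfb3* did not differ in either shorter interval. *Gpd1* and *Gpd2* are the 2 enzymes of a shuttle and not forms of 1 step.

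**Figure D3:**
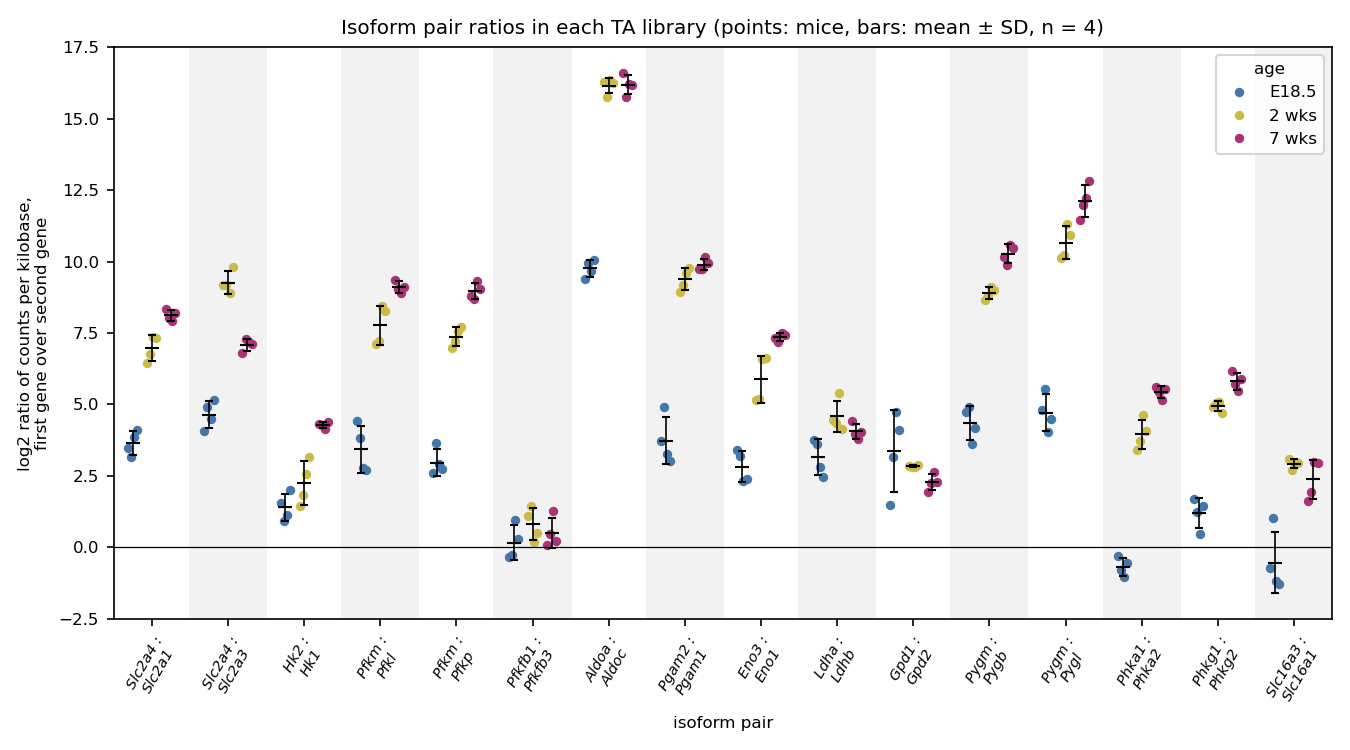
log2 ratio of counts per kilobase, first over second gene, for 16 pairs in each library (points), with the mean and SD of 4 mice at each age (bars). The line at 0 marks equal counts per kilobase. *Phka1* over *Phka2* and *Slc16a3* over *Slc16a1* start below it on average at E18.5 and lie above it in all 8 postnatal libraries.

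Glucose enters fibres through carriers of the GLUT family. *Slc2a4* (GLUT4), which insulin and contraction bring to the cell surface, stood at 45.3, 87, 76.9 and 96.9 CPM in the 4 E18.5 mice, 376, 407, 595 and 703 at 2 wks and 810.2, 894, 1064 and 991 at 7 wks. The ages did not overlap. *Slc2a4* rose by 2.76 ± 0.26 (SE) on the log2 scale to 2 wks (edgeR adjusted p = 1.49e-06) and by 0.85 ± 0.25 to 7 wks (edgeR adjusted p = 0.0213), the second rise losing its call under total-count scaling (0.53) and in 3 of 12 fits that left out 1 library (0.71 to 1.03 over all 12). *Slc2a1* (GLUT1), the carrier of basal uptake, moved the other way, from 10.5 ± 4.17 (SD, n = 4) to 6.83 ± 0.674 CPM, a change of -0.63 ± 0.25 that passed (edgeR adjusted p = 0.0385) but whose libraries overlapped and which lost its call in 7 of 12 fits that left out 1 library (-0.78 to -0.32, the latter without E18.5 replicate 2). Per unit of transcript length *Slc2a4* already made up 86.9 to 92.1% of the 3 GLUT genes at E18.5, and 98.7 to 99.3% at 2 wks.

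*Slc2a3* (GLUT3), a high-affinity carrier best known from neurons (chromosome 6, 122727809 to 122802363 on GRCm38.p6), was the only one of the 45 genes that fell in the first interval and rose in the second. It had 4.14, 4.45, 5.25 and 4.13 CPM at E18.5, 0.973, 1.07, 1.89 and 1.18 at 2 wks and 11.1, 8.7, 11.1 and 10.9 at 7 wks. Each age stood apart from the others, with the 2 wks mice lowest and the 7 wks mice highest. The change was -1.81 ± 0.22 to 2 wks (edgeR adjusted p = 9.16e-06) and 3.03 ± 0.23 to 7 wks (edgeR adjusted p = 5.12e-06). It stayed a minor carrier per length, with 0.635 to 0.892% of the 3 GLUT genes at 7 wks.

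Lactate leaves fast fibres mainly through MCT4 (*Slc16a3*) and is taken up by oxidative cells through MCT1 (*Slc16a1*). *Slc16a3* had 27.5, 67.8, 22.9 and 34.7 CPM at E18.5 and 295, 279, 542 and 500.1 at 2 wks, a rise of 3.40 ± 0.35 with no overlap (edgeR adjusted p = 2.93e-06). *Slc16a1* did not pass in either interval (log2 fold change -0.02 and 0.62). *Slc16a3* went from 41.1% ± 17.8 of the pair's counts per length in the E18.5 mice to 88.3% ± 1.12 in the 2 wks mice, with 83% ± 6.65 in the 7 wks mice (SD, n = 4).

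In upper glycolysis 3 genes rose to 2 wks, 2 fell and 1 did not pass, where 65.7% of all genes passed. Hexokinase traps glucose in the cell by phosphorylation, and *Hk2* is the form of insulin-responsive muscle while *Hk1* is the general one. *Hk2* had 96.3, 96.9, 93.6 and 143 CPM at E18.5, 139, 144, 309.9 and 383 at 2 wks and 555, 623, 486 and 634 at 7 wks. Replicates 1 and 2 of the 2 wks mice lay close to the E18.5 level, with E18.5 replicate 4 inside their span, and replicates 3 and 4 lay well above. *Hk2* rose in both intervals, by 1.18 ± 0.30 (edgeR adjusted p = 0.00317, lost under total-count scaling at 0.22) and 1.24 ± 0.30 (edgeR adjusted p = 0.00818), and *Hk1* fell from 25.7 ± 3.31 to 16.3 ± 1.26 CPM (SD, n = 4) in the second interval (log2 fold change -0.66, edgeR adjusted p = 0.00768). The *Hk2* over *Hk1* ratio was not higher beyond the spread at 2 wks (exact permutation p = 0.143) and was 4.07-fold higher at 7 than at 2 wks.

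Phosphofructokinase commits the sugar to glycolysis. Its muscle gene *Pfkm* stood at 249, 469, 270.5 and 322 CPM at E18.5, 2486, 2731, 4399 and 4132 at 2 wks and 6664, 6894, 8128 and 7643 at 7 wks, with no overlap between ages. It rose by 3.39 ± 0.27 (edgeR adjusted p = 3.37e-07) and then by 1.09 ± 0.25 (edgeR adjusted p = 0.00598). The platelet-type form *Pfkp* fell in both intervals, from 44.2 ± 6.04 to 21.8 ± 2.33 and 15.8 ± 1.7 CPM (SD, n = 4), the second fall losing its call in 3 of 12 fits that left out 1 library (-0.53 to -0.39). The liver form *Pfkl* also fell to 2 wks (-1.10 ± 0.33), but its E18.5 level was 12 CPM in replicate 1 and 34.4 to 50.2 in the others, and without E18.5 replicates 3 and 4 it was -0.54 (edgeR adjusted p = 0.193). *Pfkm* made up 76.7 to 86.8% of the 3 genes per length at E18.5 and 99.6% in each 7 wks library. *Gpi1*, the isomerase between hexokinase and phosphofructokinase, rose to 2 wks by 2.11 ± 0.20 (edgeR adjusted p = 1.30e-06) and did not pass after that.

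The PFKFB enzymes set the level of fructose-2,6-bisphosphate, the strongest activator of phosphofructokinase. All 4 genes rose to 2 wks, where 31.5% of all genes rose. *Pfkfb4* moved most, from 10.02, 18.4, 14.1 and 12.4 CPM to 95.8, 75.4, 99.4 and 95.4 CPM, a rise of 2.74 ± 0.18 without overlap (edgeR adjusted p = 7.67e-08). *Pfkfb2*, best known from heart, rose by 0.98 ± 0.18 (edgeR adjusted p = 3.21e-04). Neither passed between 2 and 7 wks. *Pfkfb1*, whose gene gives the muscle and liver forms, had 5.71, 4.89, 24 and 26.8 CPM at E18.5, 26.6, 36.3, 59.6 and 57.2 at 2 wks and 112, 108, 123 and 120.4 at 7 wks, and *Pfkfb3*, an inducible form, had 22, 17.9, 37.3 and 66.1, 37.7, 40.3, 159 and 121 and 319, 238, 156 and 311. Both were higher in E18.5 replicates 3 and 4, the libraries with high adipocyte markers, than in replicates 1 and 2. Both rose in both intervals, to 2 wks by 1.55 and 1.32, or by 3.08 and 2.17 without those replicates. When 1 library was left out, *Pfkfb3* lost its call in 5 of 12 fits in each interval (0.90 to 1.80 and 1.25 to 1.95) and *Pfkfb1* in 8 of 12 in the second (1.17 to 1.53). Under total-count scaling 3 of the 4 rises to 2 wks lost their call, those of *Pfkfb1* (0.57), *Pfkfb2* (0.06) and *Pfkfb3* (0.34), as did the second rises of *Pfkfb1* (1.04) and *Pfkfb3* (1.22).

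Lower glycolysis held the most abundant of the 45 genes and all of its rises that passed came before 2 wks. To 2 wks 7 of 11 genes rose, 3 fell and 1 did not pass, where 65.7% of all genes passed (31.5% higher). Between 2 and 7 wks 0 rose, 3 fell and 8 did not pass, where 27.5% of all genes passed (13.5% higher). *Aldoa*, the muscle aldolase that splits fructose-1,6-bisphosphate, had 746, 1713, 1155 and 1450.2 CPM at E18.5, 11842, 12824, 23275 and 21180.3 at 2 wks and 19981, 21344, 32741 and 26322 at 7 wks. It rose by 3.77 ± 0.34 (edgeR adjusted p = 1.01e-06), all 4 values at 2 wks lying above every E18.5 value, and its libraries at 2 and 7 wks overlapped. Per length *Aldoa* was the highest of the 45 genes at 2 wks (11436 ± 3832 RPKM, that is CPM per kilobase of transcript, SD, n = 4) and at 7 wks (16609.6 ± 3825), followed by *Gapdh* (8347 ± 1403 and 9603 ± 910.2) and *Eno3* (5049.6 ± 831 and 6133 ± 722). At E18.5 *Gapdh* (964 ± 403) and *Aldoa* (838 ± 274) led within each other's spread. *Aldoc*, the brain aldolase, fell from 2.6 ± 0.465 to 0.424 ± 0.11 CPM (log2 fold change -2.61, edgeR adjusted p = 5.08e-06).

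*Gapdh*, often taken as a control of constant level, differed widely across birth. It stood at 779, 2147, 1203 and 1348 CPM in the E18.5 mice and 9958, 10434, 14144 and 12876 at 2 wks, a rise of 3.11 ± 0.29 (edgeR adjusted p = 1.36e-06), and did not pass between 2 and 7 wks, where the log2 fold change was 0.20 with TMM and -0.14 with total-count scaling. *Tpi1*, which interconverts the triose phosphates, rose by 2.33 ± 0.22. *Pgk1* and *Pkm*, the kinases that make ATP, rose by 1.68 ± 0.18 and 2.91 ± 0.27. The counts of *Pkm* sum its splice forms, M1 of adult muscle and M2 of growing cells, which were not told apart here. *Gapdh*, *Pgk1*, *Aldoa*, *Eno1*, *Ldha*, *Pkm*, *Tpi1* and *Pgam1* have processed copies elsewhere in the genome that could take or lend reads, and their values are uncertain to that extent. The canonical transcript of *Gapdh* also overlaps that of *Iffo1* on the opposite strand over 1157 bases, and how the counting treated strand is not given in the sources used here.

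Phosphoglycerate mutase showed the widest split in lower glycolysis after aldolase. *Pgam2*, the muscle form (chromosome 11, 5801637 to 5803796 on GRCm38.p6), had 159.7, 413, 177 and 203 CPM at E18.5, 2943, 2918, 3666 and 3471 at 2 wks and 2402, 2922, 3892 and 2932 at 7 wks. *Pgam1*, the general form (chromosome 19, 41911871 to 41918665), had 24.9, 28.3, 38.2 and 51.3, 12.3, 10.4, 9.85 and 8.11 and 5.8, 7.08, 7.05 and 6.1. *Pgam2* was higher and *Pgam1* lower in every 2 wks mouse than in any E18.5 mouse. The changes were 3.77 ± 0.31 (edgeR adjusted p = 4.37e-07) and -1.81 ± 0.22 (edgeR adjusted p = 9.22e-06), and the ratio *Pgam2* over *Pgam1* became 49.9-fold higher. *Pgam1* fell again to 7 wks (-0.64 ± 0.21, edgeR adjusted p = 0.038), though this call was lost in 7 of 12 fits that left out 1 library (-0.73 to -0.55).

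The 250 bases before the transcript start listed by RefSeq for these genes and for *Phkg1*, the gene with the largest rise, are shown because their content of E-boxes differs. An E-box (CANNTG) is the kind of site bound by myogenic factors such as MyoD and by many other factors. The sequences are from RefSeq on GRCm38.p6, written 5′ to 3′ on the strand of the gene, with E-boxes on either strand in capitals. The start listed for *Phkg1* lies inside the outer limit of the gene given with its values, so the end of its stretch lies within that gene.
*Pgam2* (chr11:5803797-5804046, minus strand): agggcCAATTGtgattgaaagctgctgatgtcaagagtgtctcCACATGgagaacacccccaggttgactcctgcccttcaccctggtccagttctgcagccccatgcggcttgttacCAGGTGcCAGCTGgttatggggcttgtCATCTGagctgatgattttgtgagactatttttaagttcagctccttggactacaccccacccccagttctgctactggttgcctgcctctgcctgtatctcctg
*Pgam1* (chr19:41911621-41911870, plus strand): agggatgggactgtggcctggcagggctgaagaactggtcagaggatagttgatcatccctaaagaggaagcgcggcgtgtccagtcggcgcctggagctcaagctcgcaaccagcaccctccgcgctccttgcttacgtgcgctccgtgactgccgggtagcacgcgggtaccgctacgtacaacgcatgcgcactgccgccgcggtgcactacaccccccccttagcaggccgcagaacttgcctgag
*Phkg1* (chr5:129879089-129879338, minus strand): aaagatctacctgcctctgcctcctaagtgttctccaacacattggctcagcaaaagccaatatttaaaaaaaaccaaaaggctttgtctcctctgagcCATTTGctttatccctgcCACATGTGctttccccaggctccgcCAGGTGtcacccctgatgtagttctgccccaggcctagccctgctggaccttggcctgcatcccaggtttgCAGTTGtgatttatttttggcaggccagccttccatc
The *Pgam2* and *Phkg1* stretches each hold 5 E-boxes, counting 2 that overlap in *Phkg1*, and the *Pgam1* stretch holds 0. The *Pgam2* stretch also holds a match to the MEF2 consensus. Such matches are a description of letters. Over windows of 300 bases around the start (250 before and 50 after), which were on hand for 42 of the 45 genes, 30 of 42 had at least 1 E-box (71.4%), against 75% of 27025 mouse genes. Of the genes with a window, 23 of 29 that rose to 2 wks and 3 of 9 that fell had one, as did all that did not pass. Whether E-boxes go with the direction of change was not tested. The hypoxia response core ACGTG was in 23 of 42 (54.8%) against 21.8% of all genes, but the windows of these genes also had a median GC content of 59.0% against 52.7% and a median of 16 CG dinucleotides against 7, and ACGTG contains a CG. The MEF2 consensus was in 3 of 42 (7.14% against 3.7%) and TATAAA in 5 (11.9% against 15.7%).

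Enolase makes phosphoenolpyruvate. *Eno3*, the muscle form, rose from 1042 ± 413 to 8791 ± 1447 CPM (SD, n = 4) by 3.08 ± 0.28 (edgeR adjusted p = 8.75e-07), and the neuronal form *Eno2* fell in both intervals (-0.99 and -0.96). *Eno1*, the general and fetal form, had 93.2, 236, 209 and 251 CPM at E18.5, 281, 279.8, 147 and 125 at 2 wks and 79.3, 93.6, 90.6 and 79.5 at 7 wks. It did not pass to 2 wks, where replicates 1 and 2 lay above all E18.5 mice and replicates 3 and 4 among them. To 7 wks it fell, with all 7 wks mice below all 2 wks mice (log2 fold change -1.28 ± 0.31, edgeR adjusted p = 0.0085). Of the 3 enolase genes per length, *Eno1* held 12.8% ± 4.17 in the E18.5 mice, 1.87% ± 0.973 in the 2 wks mice and 0.61% ± 0.061 in the 7 wks mice (SD, n = 4).

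Replicates 3 and 4 of the 2 wks mice stood apart from replicates 1 and 2 in several genes at once, named here after their values were seen. *Aldoa*, *Hk2*, *Pfkm*, *Slc2a4*, *Gys1*, *Ugp2*, *Slc16a3* and *Pfkfb3* were higher in both of them than in either of the others. So were *Gapdh*, *Eno3*, *Pkm*, *Pgam2*, *Pygm*, *Phka1*, *Phkb*, *Gbe1*, *Pfkfb1*, *Ppp1r3a*, *Ppp1r3c*, *Slc16a1*, *Slc2a3*, *Aldoc* and, by a small margin, *Pgk1*. Lower in both were *Eno1*, *Eno2*, *Pygl*, *Pygb*, *Phka2*, *Phkg1*, *Pgam1*, *Pfkl* and *Pfkfb2*. In the remaining genes the replicates overlapped. Some of the marker sums were split in the same way, with 107429 and 118943 CPM of muscle fibre markers in replicates 3 and 4 against 88329 and 88115 in replicates 1 and 2. The 4 fast and slow fibre myosins summed to 59304 and 57496 CPM against 48870 and 44061, and red blood cell markers to 146 and 148 CPM against 477 and 756. The sums for macrophages (40.4 and 38.9 against 54.7 and 56.5 CPM) and Schwann cells (211 and 133 against 628 and 239 CPM) were also lower in replicates 3 and 4. So was the low sum for epidermis (2.68 and 3.49 against 3.99 and 3.66 CPM). Those for fibroblasts, endothelium, adipocytes, embryonic and perinatal fibres, and cartilage and bone overlapped between the replicates. The part of any of these in the levels was not tested. Chi-square per degree of freedom over genes was 34.3 between replicates 1 and 2, the lowest of the 18 pairs of replicates, and 133.8 between 3 and 4.

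**Figure D4:**
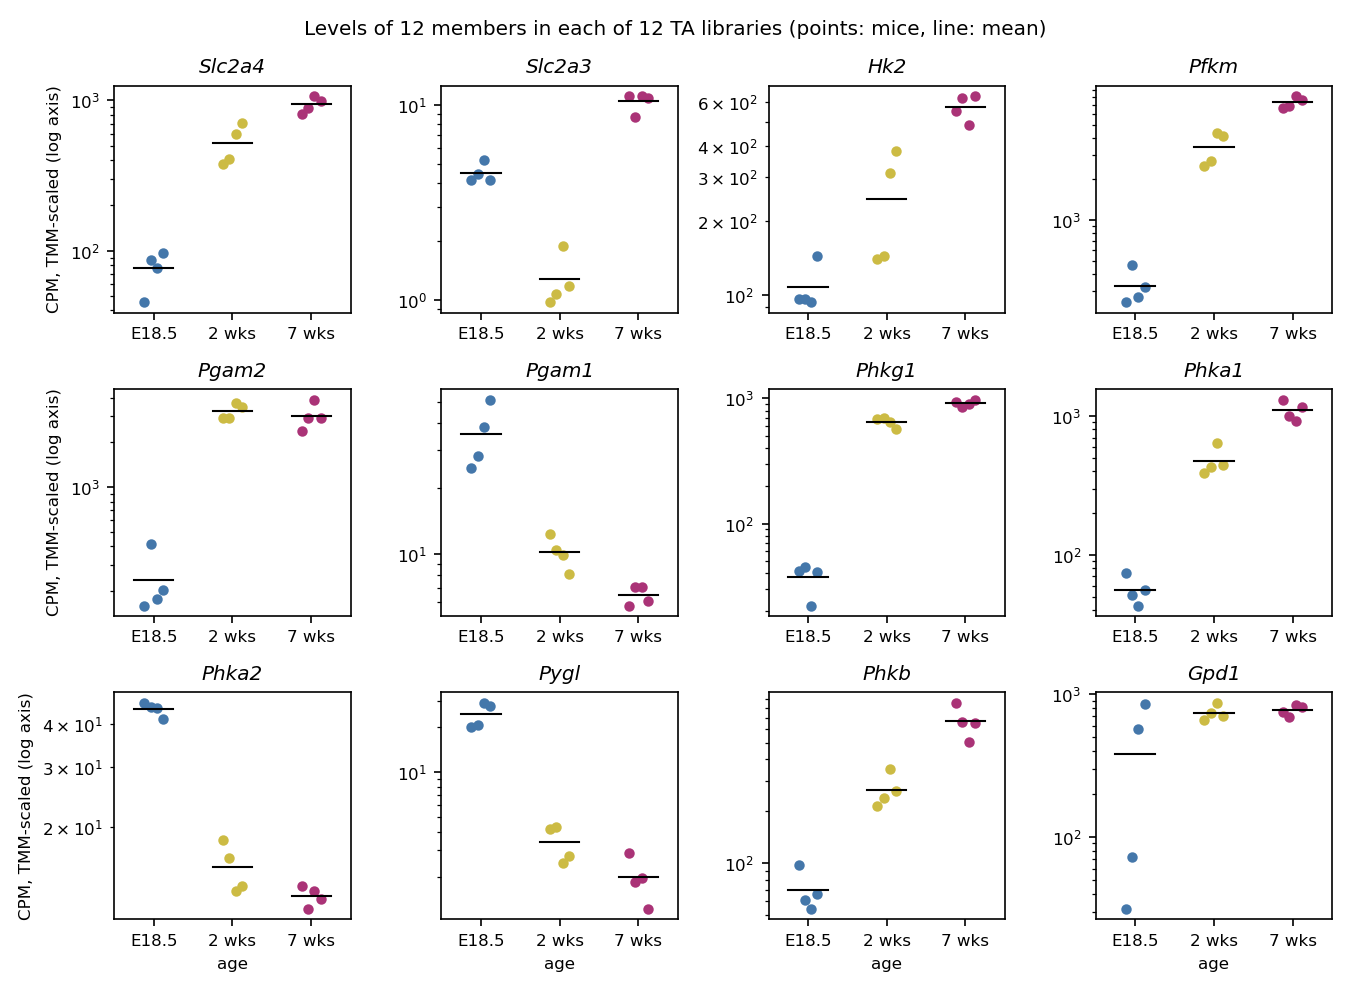
Level of 12 genes in CPM (log axis) in each library, with the mean of each age as a line. *Slc2a3* is lowest at 2 wks, *Pgam1*, *Phka2* and *Pygl* fall as *Pgam2*, *Phka1* and *Phkg1* rise, and *Gpd1* spans 31.4 to 860.1 CPM among the E18.5 libraries.

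Of the 5 genes around pyruvate and triose phosphate 4 rose to 2 wks, and 0 passed in either direction between 2 and 7 wks. Among all genes tested 31.5% rose to 2 wks and 27.5% passed between 2 and 7 wks. Lactate dehydrogenase links pyruvate and lactate. *Ldha*, the subunit of glycolytic tissue, had 527, 884, 632 and 807 CPM at E18.5 and 3272, 3806, 4177 and 3558 at 2 wks, a rise of 2.38 ± 0.20 (edgeR adjusted p = 6.26e-07) without overlap. *Ldhb*, the heart subunit, rose less (0.86 ± 0.35, edgeR adjusted p = 0.0398), overlapped between the ages, was -0.06 under total-count scaling, and lost its call in 6 of 12 fits that left out 1 library (0.62 to 1.25). *Fbp2*, the muscle fructose bisphosphatase that works against phosphofructokinase, rose by 2.79 ± 0.15 (edgeR adjusted p = 1.43e-08), from 7.71, 8.99, 6.82 and 8.78 to 51.8, 49.9, 70.9 and 50.2 CPM.

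The glycerol phosphate shuttle passes electrons of glycolysis to mitochondria through *Gpd1* in the cytosol and *Gpd2* in the mitochondrial membrane, and *Gpd1* is also abundant in fat cells. *Gpd1* stood at 31.4, 72.3, 568 and 860.1 CPM in E18.5 replicates 1 to 4, 658, 739, 872 and 709 at 2 wks and 746, 689.9, 847 and 819.6 at 7 wks. E18.5 replicates 3 and 4 lay close to the postnatal level, and replicates 1 and 2 far below it. Replicates 3 and 4 are also the libraries with 1972 and 2700.1 CPM of adipocyte markers, of which all 6 were detected, and *Adipoq*, a hormone gene of fat cells, ranged from 6.38 to 213 CPM at E18.5 against 0.692 to 3.25 at 2 wks. With all mice *Gpd1* did not pass (0.96 ± 0.69, edgeR adjusted p = 0.233), and without replicates 3 and 4 it was higher at 2 wks by 3.84 (edgeR adjusted p = 3.89e-06). *Gpd2* rose by 2.19 ± 0.43 (edgeR adjusted p = 5.52e-04), or by 3.42 without them. Leaving them out gave 39 of the 45 genes changed, 30 higher and 9 lower, with *Gpd1* and *Gbe1* gained and *Pfkl*, *Ugp2* and *Phkg2* lost. The part of adipocyte RNA in these values was not tested.

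**Figure D5:**
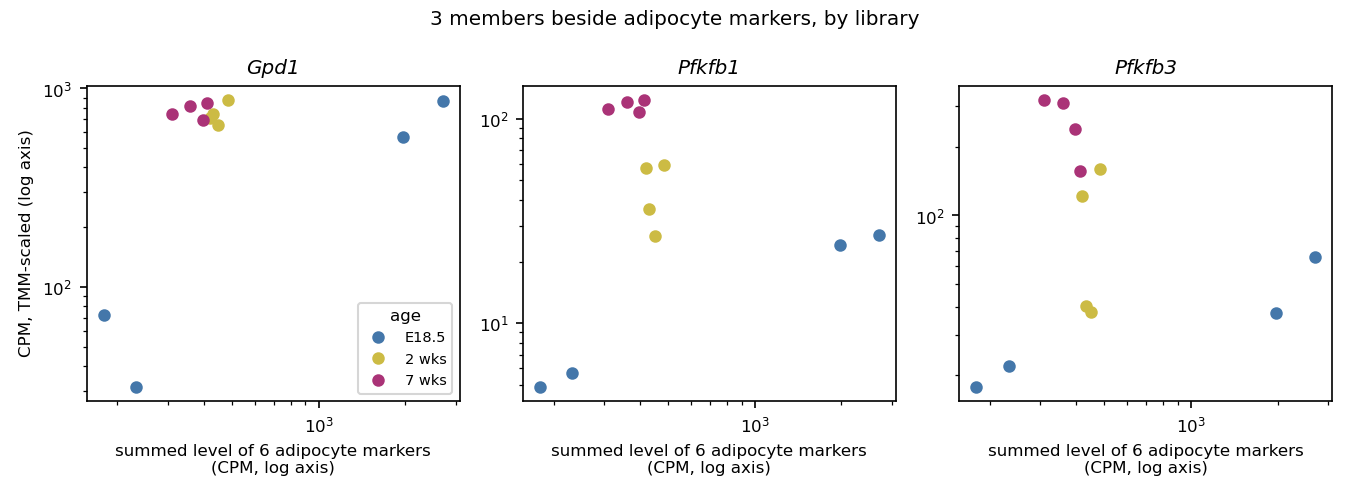
Level of *Gpd1*, *Pfkfb1* and *Pfkfb3* (CPM, log axis) against the summed level of 6 adipocyte markers (CPM, log axis) in each of the 12 libraries. The E18.5 libraries fall into a pair with 179 and 232 CPM of markers and a pair with 1972 and 2700.1 CPM, and in all 3 genes the second pair is higher than the first. At 2 and 7 wks the sum is nearly all *Fabp4*.

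Of the 6 glycogen synthesis genes 5 rose to 2 wks and 5 between 2 and 7 wks, with 0 lower in either interval, and *Gys1*, *Pgm1*, *Ppp1r3a* and *Ppp1r3c* rose in both. Their median log2 fold change was 1.53 and then 0.93. Among all genes tested 31.5% rose to 2 wks and 13.5% between 2 and 7 wks. *Gys1*, muscle glycogen synthase, had 102, 139, 118 and 157 CPM at E18.5, 366, 439, 626 and 722 at 2 wks and 907, 1003, 907 and 885 at 7 wks. The ages did not overlap, with rises of 2.06 ± 0.22 (edgeR adjusted p = 3.61e-06) and 0.78 ± 0.21 (edgeR adjusted p = 0.0152), the second lost in 2 of 12 fits that left out 1 library (0.62 to 0.96). *Pgm1*, which interconverts glucose-1-phosphate and glucose-6-phosphate, rose by 2.32 ± 0.15 and 0.59 ± 0.14, from 196 ± 16.5 to 984 ± 70.6 and 1478 ± 149 CPM (SD, n = 4).

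*Ppp1r3a* and *Ppp1r3c* encode subunits that hold protein phosphatase 1 on glycogen, where it activates the synthase, and both rose in both intervals. *Ppp1r3a*, the muscle subunit, had 127, 60.9, 44.6 and 71.8 CPM at E18.5, 163, 161, 207 and 179 at 2 wks and 522, 399.9, 239.6 and 397 at 7 wks, and *Ppp1r3c* had 108, 63, 75.9 and 132, 316, 255, 372 and 415 and 686, 621, 578 and 893. Every older mouse lay above every younger one in both genes, although the first rise of *Ppp1r3a* (1.22) lost its call under total-count scaling (0.30). *Gbe1*, the branching enzyme, did not pass to 2 wks (0.63 ± 0.29, edgeR adjusted p = 0.076, or 0.99 and 0.0216 without E18.5 replicates 3 and 4) and rose to 7 wks by 0.99 ± 0.30 (edgeR adjusted p = 0.024), a call lost in 3 of 12 fits that left out 1 library (0.80 to 1.22). *Ugp2*, which makes the UDP-glucose that synthase uses, rose to 2 wks by 0.91 ± 0.31 (edgeR adjusted p = 0.0189), though its value was -0.05 under total-count scaling, its call was lost in 3 of 12 fits that left out 1 library (0.70 to 1.2), and it was 0.67 without E18.5 replicates 3 and 4 (edgeR adjusted p = 0.147). Under total-count scaling the second rises of *Gys1* (0.46), *Gbe1* (0.67) and *Pgm1* (0.23) lost their call as well, while those of *Ppp1r3a* and *Ppp1r3c* did not.

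Among the 8 glycogen breakdown genes 5 rose and 3 fell to 2 wks, and the split ran between forms of the same protein. Over all genes tested 31.5% rose and 34.2% fell. *Pygm*, the muscle phosphorylase that is missing in McArdle disease, had 579.7, 985, 488 and 634 CPM at E18.5, 4723, 5337, 6436 and 5551 at 2 wks and 8349.9, 7629, 9645 and 9124 at 7 wks. It rose by 3.04 ± 0.24 (edgeR adjusted p = 3.38e-07) and by 0.66 ± 0.23 (edgeR adjusted p = 0.0437), the latter lost under total-count scaling (0.31) and in 9 of 12 fits that left out 1 library (0.58 to 0.74). *Pygl*, the liver form, had 20.3, 20.9, 29.2 and 27.9, 4.19, 4.34, 2.46 and 2.77 and 2.89, 1.85, 1.98 and 1.22 CPM, and *Pygb*, the brain form, went from 43.7 ± 10.6 to 15.5 ± 0.657 and 9.44 ± 1.17 CPM (SD, n = 4). Both fell in both intervals, the second fall of *Pygl* losing its call in 5 of 12 fits that left out 1 library (-1.03 to -0.62). Per length *Pygm* was 87.5 to 94.8% of the 3 genes at E18.5 and 99.7 to 99.8% at 2 wks.

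Phosphorylase kinase is built of alpha, beta, gamma and calmodulin subunits, and its alpha subunit was the only one of the 16 pairs in which the adult form, per unit of transcript length, was the lesser one in all 4 E18.5 mice. Both alpha genes are X-linked, *Phka1* at 102513975 to 102644301 and *Phka2* at 160501904 to 160598879 on chromosome X of GRCm38.p6. *Phka1*, the muscle alpha subunit, had 74.2, 51.5, 43.2 and 55.6 CPM at E18.5, 386, 426, 635 and 447 at 2 wks and 1314, 1007, 916 and 1152 at 7 wks. *Phka2*, the liver alpha subunit, had 46.1, 44.9, 44.5 and 41.4, 18.3, 16.2, 13 and 13.4 and 13.4, 11.5, 13 and 12.3. No library of E18.5 overlapped with a postnatal one in either gene, and the changes to 2 wks were 3.08 ± 0.22 (edgeR adjusted p = 1.61e-07) and -1.54 ± 0.14 (edgeR adjusted p = 8.08e-07). *Phka1* made up 38.5% ± 5.13 of alpha subunit counts per length in the E18.5 mice, 93.7% ± 2.01 in the 2 wks mice and 97.7% ± 0.339 in the 7 wks mice (SD, n = 4), and the ratio was 24.7-fold higher at 2 wks than at E18.5 and 2.81-fold higher again at 7 wks.

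*Phkg1*, the catalytic gamma subunit of muscle (chromosome 5, 129863431 to 129879134 on GRCm38.p6), had 41.7, 45.3, 22.2 and 41 CPM at E18.5, 690.4, 693, 651 and 575 at 2 wks and 933, 861, 898 and 980.1 at 7 wks. Its rise to 2 wks was 4.12 ± 0.22 (edgeR adjusted p = 1.20e-08), and the step to 7 wks did not pass although the ages did not overlap (0.49 ± 0.20, edgeR adjusted p = 0.078). *Phkg2*, the gamma subunit of liver and testis, rose by only 0.42 ± 0.16 (edgeR adjusted p = 0.0361), was -0.51 under total-count scaling, which passed as a fall (edgeR adjusted p = 0.0181), and lost its call in 6 of 12 fits that left out 1 library (0.33 to 0.53) and without E18.5 replicates 3 and 4 (0.41, edgeR adjusted p = 0.139). *Phkb*, the beta subunit shared by all forms of the enzyme, rose in both intervals, from 97.9, 61.1, 54.2 and 66.1 to 214, 240.2, 349.7 and 262 and 853, 659, 506 and 649 CPM. Its steps were 1.93 ± 0.23 and 1.32 ± 0.23, so the shared subunit gained less to 2 wks than *Phka1* or *Phkg1*, a difference that was not tested. The canonical transcripts of *Phkg1* and *Sumf2* share 1395 bases on opposite strands, and those of *Phkg2* and *Cfap119* 947, so part of these counts could belong to the neighbour if the counting did not use strand, which is not given in the sources used here.

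Other genes of glucose and glycogen metabolism moved in both directions. Of 49 listed genes that are not among the 45, 47 could be tested, and 22 rose, 15 fell and 10 did not pass to 2 wks, where 65.7% of all genes passed, with a median log2 fold change of 0.58. Between 2 and 7 wks 13 rose, 5 fell and 29 did not pass, where 27.5% of all genes passed, with a median of 0.19. Among the largest rises to 2 wks were those of *Ldhd*, the D-lactate dehydrogenase (5.22), *Epas1*, the hypoxia factor HIF-2 alpha (3.05), and *Bpgm*, bisphosphoglycerate mutase (3.02), and the deepest falls those of *Hif3a*, a hypoxia factor (-4.37), *Ppp1r3b* (-4.33) and *Ppp1r3d* (-2.12), further PP1 glycogen subunits, and *Slc16a7*, the pyruvate carrier MCT2 (-2.45). *Ppp1r3b* and *Ppp1r3d*, and at under 1 CPM also *Ppp1r3e* (-1.31) and *Ppp1r3g* (-1.86), fell over the interval in which *Ppp1r3a* and *Ppp1r3c* rose. *Ppp1r3f*, also under 1 CPM, did not pass (0.17, edgeR adjusted p = 0.622). Between 2 and 7 wks the largest rises were those of *Tigar*, a fructose-2,6-bisphosphatase (1.61), *Prkab2*, a muscle subunit of AMP-activated kinase (1.46), *Epm2a*, the glycogen phosphatase laforin (1.37), and *Tbc1d1*, which regulates GLUT4 traffic (1.19). The falls in that interval, at a mean level of at least 1 log2 CPM, were those of *Pgm2*, a relative of *Pgm1* (-0.99), *Slc2a10*, the carrier GLUT10 (-0.80) and *Ppp1r3d* (-0.74).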

How the data were processed

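RNA of 12 TA pieces, 4 WT mice per age, was sequenced from stranded polyA libraries. The deposited values are raw counts of reads per Ensembl gene, which the authors made, per the submitters' processing notes, with bcl2fastq 2.17.1.14, cutadapt 1.10, STAR 2.5.3a and HTSeq 0.6.1p1 on mm10. The paper's methods name GRCm39 for its transcript quantification, which was not used here. The annotation and strand setting of the counting are not given in the sources used here. Library totals were 63018968 to 123449246, and each of the 45 genes had at least 16 counts in every library.

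All 12 libraries entered 1 quasi-likelihood model of edgeR 4.0.16 with TMM scaling and a term for age, run under R 4.3.3 with limma 3.58.1. filterByExpr kept 19276 of 55450 genes, and p-values were adjusted by Benjamini-Hochberg (threshold 0.05). The edgeR p-values set each change against the spread between mice of the same age, which the model estimates with help from other genes. Isoform ratios used counts per kilobase of the Ensembl canonical transcript (GENCODE vM39) with a pseudocount of 0.5 count and two-sided exact permutation tests (scipy 1.17.1, Python 3.11.15). Coordinates and promoters are RefSeq on GRCm38.p6, and all 45 genes were matched. The scripts were tested on simulated counts. No library was a copy of another, since the lowest chi-square per degree of freedom between mice of the same age was 34.3 over 18 pairs.

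Alternatives were total-count scaling, DESeq2 size factors, DESeq2 1.42.0, other filters, the replicate number as a block, removal of each library's GC trend, a log2 fold change beyond 1 (glmTreat), a pseudocount of 5, only the 8 libraries compared, and each library left out. Leaving out E18.5 replicates 3 and 4 was chosen after seeing the data. The 45 genes, the 16 pairs, the 49 further genes and the marker lists were chosen with earlier results of these data known. All 45 genes were open to naming. Among those past the threshold in an interval, the 3 highest and the 3 lowest fold changes were singled out, and of the 49 further genes the 4 of each kind whose mean level reached 1 log2 CPM, of which 1 is not reported here. Figures were drawn with matplotlib 3.10.9.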

Additional observations from a re-analysis of the deposited data

Results flagged for a closer look

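In each set of 4 mice the highest and the lowest value were compared with the other 3, and 6 of 135 sets held a value set apart by more than Dixon's 95% limit, where chance gives about 1 in 20, or 6.75. *Slc2a3* was 8.7 CPM in 7 wks replicate 2 against 10.9 to 11.1 in the others, and *Gbe1* was 268 CPM in the same mouse against 208 to 216. *Hk2* was 143 CPM in E18.5 replicate 4 against 93.6 to 96.9. *Pgam2* was 413 CPM in E18.5 replicate 2, the E18.5 library with the highest muscle fibre markers (14166 CPM), against 159.7 to 203. At 2 wks *Pfkfb4* was 75.4 CPM in replicate 2 against 95.4 to 99.4, and *Fbp2* was 70.9 CPM in replicate 3 against 49.9 to 51.8. In each of these 6 genes except *Hk2* and *Gbe1* the E18.5 and 2 wks mice did not overlap.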

How the results depend on the processing

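The count of changed genes stayed within 1.5 times its value (40, 21 and 42 for E18.5 to 2 wks, 2 to 7 wks and E18.5 to 7 wks) under every alternative run, except that between 2 and 7 wks it was 1 for a log2 fold change beyond 1, and 13 to 22 (lowest without 2 wks replicate 1 or 2) when 1 library was left out. The other ranges with 1 library left out were 35 to 41 and 41 to 44. The isoform pair counts of 13, 11 and 14 stayed within that limit in every alternative run with a test, but with 1 library left out the exact test cannot go below 0.0571. Same-numbered libraries did not deviate together (correlations -0.142 to 0.284), so the numbers were not taken as pairs, and with the replicate number as a block 39, 19 and 42 genes changed, without *Slc2a1* (-0.56) to 2 wks and *Pgam1* (-0.65) and *Pygm* (0.66) to 7 wks. The GC trend removed gave 42, 26 and 44. The values below turned sign, and the cause was not tested. To 2 wks, total-count scaling gave *Hk1* -0.73, *Eno1* -0.82, *Ldhb* -0.062, *Gbe1* -0.33, *Ugp2* -0.047 and *Phkg2* -0.51. GC removal gave *Slc16a1* 0.53, *Hk1* -0.52, *Eno1* -0.91 and *Phkg2* -0.41, the filter of 10 counts in every library *Eno1* -0.035, the block *Slc16a1* 0.002, and E18.5 replicates 3 and 4 left out *Slc16a1* 0.43. From 2 to 7 wks, total-count scaling gave *Slc16a3* -0.28, *Gpi1* -0.31, *Pfkfb2* -0.23, *Tpi1* -0.19, *Gapdh* -0.14, *Pgk1* -0.33, *Eno3* -0.06, *Ldha* -0.12 and *Gpd1* -0.29. GC removal gave *Pfkl* 0.067 and *Pgam2* 0.16, the filter of 10 counts *Gpi1* -0.003 and *Pgk1* -0.029, and the 8 libraries alone *Pgk1* -0.023. With 1 library left out, *Slc16a1* ran from -0.19 to 0.29 and *Eno1* from -0.16 to 0.27 to 2 wks, and from 2 to 7 wks *Slc16a3* from -0.10 to 0.22, *Gpi1* from -0.046 to 0.088, *Pgk1* from -0.10 to 0.13, *Pgam2* from -0.24 to 0.001 and *Gpd1* from -0.01 to 0.14. Of these, *Ldhb*, *Ugp2* and *Phkg2* had passed to 2 wks and the others had not, and *Hk1*, *Eno1* and *Phkg2* passed as lower to 2 wks under both total-count scaling and GC removal. Depth did not limit the abundant genes, and the number of mice sets the smallest p of the ratio tests.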
